A study of Mus musculus with 2 samples.

Results

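The 7 genes described here are Nphs1, Podxl, Synpo, Ptpro, Magi2, Cd2ap and Wt1, picked for their known place in the podocyte, the cell that wraps the capillaries of the kidney glomerulus. The files spell them in lower case, as nphs1, podxl, synpo, ptpro, magi2, cd2ap and wt1. They were taken by name, and all 7 were found among the 9590 genes listed for the control library and the 9545 listed for the exposed library. Cells that held at least 1 molecule count of Wt1 were then set in order by how many of the other 6 members they also held, so that the order in which the members appear could be read.

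The study profiled single cells of whole kidneys from C57BL/6J mice on postnatal day 2 and compared a control with a mouse exposed to maternal diabetes, called DM_Exp by the submitters. Each group is 1 library, which the series design gives as pooled cells of 1 kidney. Male is written there beside the exposed mice only, and whether it covers the control is not clear. The labels do not say how diabetes was produced in the mothers. Kidneys were dissociated with trypsin, frozen, and sequenced with the 10x Genomics 3′ v2 kit, which counts unique molecular identifiers (UMIs) near the 3′ end of polyadenylated RNA. With 1 library a group, a difference between the libraries could come from exposure, from the animal or from the preparation, and these cannot be told apart. No test was therefore made, and every interval below is a 95% interval that covers counting error only.

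The control library held 9071 cells with 39442253 UMIs and a median of 3453 UMIs a cell, and the exposed library held 5494 cells with 28381167 UMIs and a median of 4252. The authors had placed the cells of each library in 10 clusters, numbered apart, and 14 cell barcodes occurred in both libraries. In each library 1 cluster was podocyte-like, with all 14 measured podocyte markers that are not members (among them Cdkn1c, Thsd7a and Col4a3) enriched in it. It held 354 control cells, 3.90% of that library (3.51% to 4.32%), and 254 exposed cells, 4.62% (4.08% to 5.21%). The largest cluster in both libraries, with 3335 and 1963 cells, was led by Wnt4 and carried markers of nephron progenitors and of differentiating nephrons together. In the control library it also held 7 markers of ureteric bud and collecting duct. It is called the Wnt4-led cluster here.

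Podocytes send out foot processes that interlock around the capillary, and the gap between them is bridged by the slit diaphragm, a cell junction specialised for filtration. Nephrin, the product of Nphs1, is the adhesion molecule that spans this gap, while the products of Magi2 and Cd2ap are scaffold and adaptor proteins on its inner side. Podxl encodes podocalyxin, the charged sialomucin of the foot process surface, Ptpro a receptor tyrosine phosphatase of the same surface, and Synpo synaptopodin, which binds actin. Wt1 encodes a transcription factor of the podocyte. In the growing kidney, Wt1 is already on in nephron progenitors and stays on in podocytes, and Wnt4 marks the vesicle that the progenitors form.

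Promoter sequence from RefSeq (GRCm38.p6, 250 bases before to 50 bases after the start site) was at hand for 4 members with 5 start sites, and it is printed because Nphs1, Ptpro and Magi2 were largely confined to the podocyte-like cluster while Cd2ap was found widely. Entries for Podxl and Wt1 were not in the table used. Sequences run 5′ to 3′ along the strand of the gene, and capitals mark a match to 1 of 3 motifs searched on both strands.
Nphs1 promoter, chr7:30459808-30460107, plus strand: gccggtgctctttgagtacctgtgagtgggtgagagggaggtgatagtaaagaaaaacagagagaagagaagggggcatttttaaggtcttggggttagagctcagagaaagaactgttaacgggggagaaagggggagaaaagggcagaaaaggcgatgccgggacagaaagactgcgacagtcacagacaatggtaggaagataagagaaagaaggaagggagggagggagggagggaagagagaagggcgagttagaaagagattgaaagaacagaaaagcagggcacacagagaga
Ptpro promoter, chr6:137252049-137252348, plus strand: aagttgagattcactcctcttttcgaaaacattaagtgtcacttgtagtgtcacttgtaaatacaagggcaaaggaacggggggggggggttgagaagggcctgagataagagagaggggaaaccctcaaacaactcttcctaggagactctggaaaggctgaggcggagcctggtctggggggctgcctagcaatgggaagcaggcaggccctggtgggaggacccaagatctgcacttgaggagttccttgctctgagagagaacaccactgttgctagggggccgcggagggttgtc
Magi2 upstream promoter, chr5:19226796-19227095, plus strand: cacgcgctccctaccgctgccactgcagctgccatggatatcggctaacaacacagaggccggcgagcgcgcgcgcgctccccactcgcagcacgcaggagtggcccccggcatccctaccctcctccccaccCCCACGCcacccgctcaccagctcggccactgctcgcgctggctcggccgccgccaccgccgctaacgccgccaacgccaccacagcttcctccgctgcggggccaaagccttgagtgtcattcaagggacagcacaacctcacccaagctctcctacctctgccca
Magi2 downstream promoter, chr5:19907268-19907567, plus strand: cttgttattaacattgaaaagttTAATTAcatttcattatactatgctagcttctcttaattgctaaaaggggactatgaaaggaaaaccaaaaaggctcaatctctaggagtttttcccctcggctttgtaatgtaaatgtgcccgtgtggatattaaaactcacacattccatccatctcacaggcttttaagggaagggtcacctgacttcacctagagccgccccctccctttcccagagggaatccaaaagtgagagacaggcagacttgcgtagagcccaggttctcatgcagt
Cd2ap promoter, chr17:42876375-42876674, minus strand: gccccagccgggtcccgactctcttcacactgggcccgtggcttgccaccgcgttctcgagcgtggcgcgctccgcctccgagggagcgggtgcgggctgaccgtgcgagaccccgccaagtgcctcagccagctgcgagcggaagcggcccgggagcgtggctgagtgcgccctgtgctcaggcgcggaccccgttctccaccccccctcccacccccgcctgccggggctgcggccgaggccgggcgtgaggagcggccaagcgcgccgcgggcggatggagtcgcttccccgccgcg
The motifs were GCGGGGGCG and GCGTGGG (WT1 type) and TAATTA (LMX1B type), which occur in 2.91%, 5.04% and 5.29% of all 32851 promoters of the same length. The upstream Magi2 promoter held GCGTGGG on the other strand, and the downstream Magi2 promoter held TAATTA, which reads the same on both strands. The letters of the 3 motifs do not occur in the Nphs1, Ptpro and Cd2ap windows. Base composition set Cd2ap apart from Nphs1 and Ptpro, since 77.0% of its bases were G or C, against 49.7% and 54.7%, and it held 41 CG pairs, against 6 and 5. The median over all promoters was 52.7% G or C with 7 CG pairs. The Magi2 promoters lay on either side of that median, with 69.3% and 43.0% G or C and with 29 and 4 CG pairs.

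All 7 members had their highest level in the podocyte-like cluster in both libraries. The clusters were built by the authors from the same cells, so these levels describe the clusters and are not a test. Nphs1 (chr7:30458315-30487223, plus strand, GRCm38) reached 594 UMIs per 1000000 UMIs of the cluster (CPM; 547 to 644) in the control podocyte-like cluster and 622 (569 to 680) in the exposed one. The next cluster held 7.82 CPM in the control library and 11.97 in the exposed library, which made Nphs1 the most confined of the members, 76.0-fold (63.2 to 91.7) and 52.0-fold (22.1 to 161) over the next. Magi2 (chr5:19227036-20704792, plus strand) followed closely, at 908 and 949 CPM, which was 61.7-fold and 49.5-fold above the next cluster.

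Cd2ap (chr17:42792951-42876665, minus strand) behaved otherwise. Its level was 488 CPM (446 to 534) in the control podocyte-like cluster and 427 (383 to 475) in the exposed one, only 2.66-fold and 1.88-fold above the next cluster, which was loop of Henle and distal tubule-like at 184 and 227 CPM. The podocyte-like cluster held 10.6% of all Cd2ap UMIs in the control library and 10.5% in the exposed library, whereas it held 76.1% and 85.6% of those of Nphs1. Cd2ap was thus found in clusters across the kidney.

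Both surface genes had a different second site. Podxl (chr6:31519488-31563981, minus strand) reached 2516 CPM (2418 to 2616) and 2515 CPM (2405 to 2627) in the podocyte-like clusters, and 302 and 273 CPM in the endothelium-like clusters. In cells thinned to 2000 UMIs, a Podxl UMI was held by 98.6% of podocyte-like cells in each library and by 36.9% and 39.2% of endothelium-like cells, but by only 0.564% and 0.205% of stroma-like cells. Ptpro (chr6:137252319-137463233, plus strand) reached 482 CPM (440 to 528) and 520 CPM (471 to 573), and its next cluster was macrophage-like, at 28.0 CPM (14.9 to 47.9) and 24.2 CPM (11.6 to 44.6), from 13 and 10 UMIs. Nphs1, Synpo and Magi2 had 0 UMIs in the macrophage-like clusters of both libraries, which, at a limit of 3 counts, allows up to 6.46 CPM in the control and 7.27 CPM in the exposed library.

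Synpo, the actin-binding member, stood at 472 CPM (431 to 517) and 490 CPM (443 to 541) in the podocyte-like clusters and at 24.2 and 15.7 CPM in the endothelium-like clusters next to them. Its share of cells in the podocyte-like cluster was 61.0% and 70.1%, and after thinning to 2000 UMIs 55.8% (48.7% to 62.6%) and 53.8% (46.8% to 60.8%), so the higher unthinned share of the exposed library was not seen at equal depth. Stroma-like cells held a Synpo UMI in 2.40% and 2.05% of thinned cells. Median depth was 2142 and 2616 UMIs a cell in the podocyte-like clusters and 2783 and 3588 in the stroma-like clusters.

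The transcription factor reached further into other cells. Wt1 (chr2:105126529-105173616, plus strand) stood at 1718 CPM (1637 to 1801) and 1762 CPM (1671 to 1857) in the podocyte-like clusters, with the Wnt4-led cluster next at 264 and 258 CPM. The Wnt4-led cluster is far larger, so the podocyte-like cluster held only 24.1% and 27.8% of all Wt1 UMIs. Wt1 alone therefore did not mark a podocyte.

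**Figure D1:**
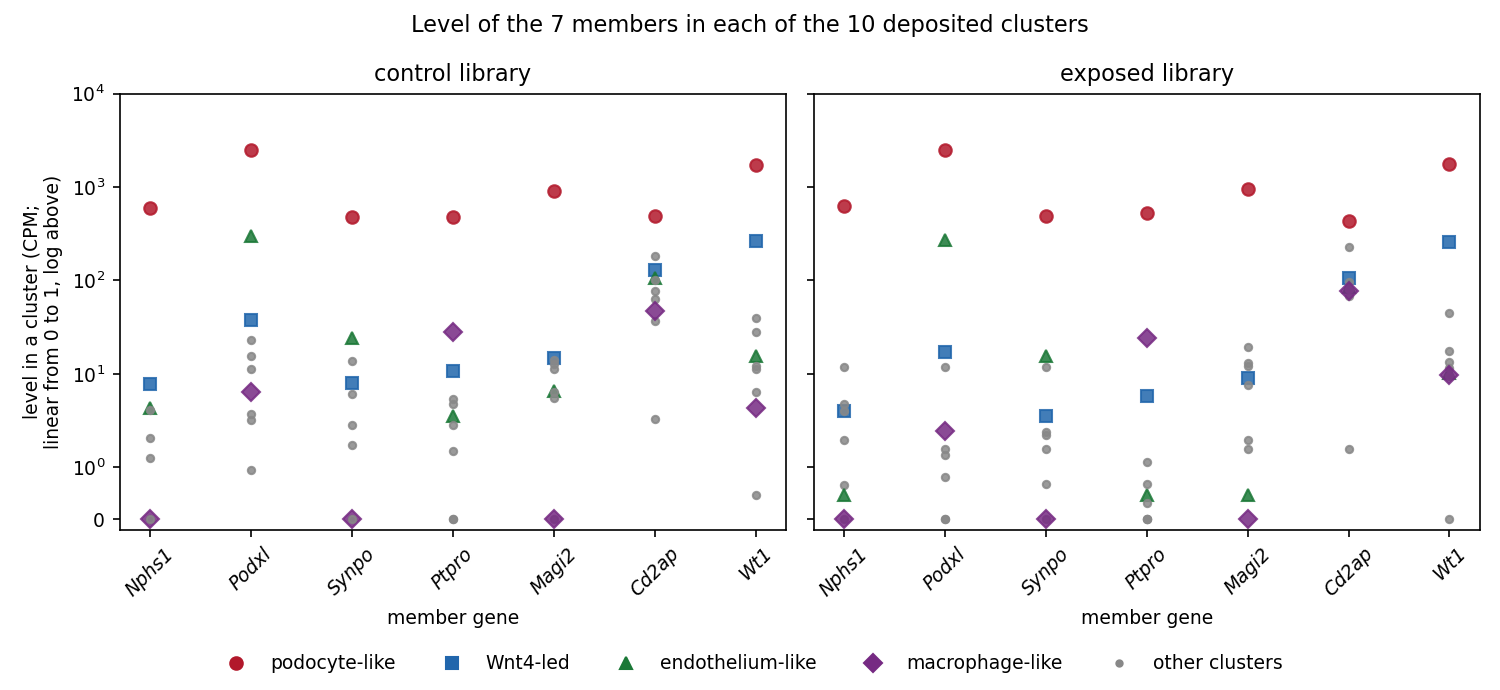
Level of each member (vertical axis, CPM, linear from 0 to 1 and logarithmic above) in each of the 10 deposited clusters of the control library (left) and the exposed library (right), with 1 symbol a cluster. The podocyte-like cluster is the highest point for all 7 members; the gap to the next cluster is widest for Nphs1 and Magi2 and narrowest for Cd2ap.

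A Wt1 UMI was held by 2149 of 9071 control cells, a share of 23.7% (22.8% to 24.6%), and by 1476 of 5494 exposed cells, 26.9% (25.7% to 28.1%). These intervals do not overlap, but after thinning to 2000 UMIs the shares were 17.6% (16.7% to 18.4%) and 18.4% (17.4% to 19.6%), which do. Within the podocyte-like cluster 95.5% of control and 96.9% of exposed cells held Wt1, and within the Wnt4-led cluster 44.7% and 49.6% did. Of all cells with Wt1, 15.7% and 16.7% lay in the podocyte-like cluster, 69.3% and 66.0% in the Wnt4-led cluster and 11.5% and 14.3% in the stroma-like clusters. Of the cells with none of the other 6 members, 79.6% and 73.9% lay in the Wnt4-led cluster.

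Splitting the Wnt4-led cluster by Wt1 separated the members. Podxl stood at 5.74 CPM (4.30 to 7.51) in control cells without Wt1 and at 69.1 CPM (63.9 to 74.7) in those with it, and in the exposed library at 1.76 (0.846 to 3.24) and 29.9 CPM (25.9 to 34.2). Nphs1 went from 0.542 to 15 CPM in the control library and from 0.353 to 7.0 in the exposed one, and Ptpro from 0.542 to 20.6 CPM and from 0.176 to 10.4 CPM. Cd2ap did not follow, at 145 CPM without Wt1 and 112 with it in the control library and at 107 and 106 in the exposed library. The same cells with Wt1 also carried more of the progenitor genes. Cited1, a marker of uninduced progenitors, stood at 94.3 CPM without Wt1 and 312 with it in the control library and at 73.9 and 257 in the exposed one, and Six2, the progenitor transcription factor, at 17.3 and 85.5 and at 14.8 and 66.9 CPM. Foxc2 and Tcf21, transcription factors of the podocyte lineage, were higher with Wt1 as well, Tcf21 at 25.4 and 128 CPM and at 27.0 and 126 CPM. Cells with Wt1 were the deeper ones, with medians of 4949 UMIs against 4063 in the control and 5980 against 5110 in the exposed library.

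In these Wnt4-led cells with Wt1, 5 of the 6 other members stood lower in the exposed library, with intervals that did not overlap. Of the 8236 measured genes, 5.08% stood lower in this way and 6.05% higher. Podxl was 69.1 against 29.9 CPM, Magi2 23.3 (20.3 to 26.6) against 11.3 (8.94 to 14.1), Synpo 13.8 (11.5 to 16.4) against 5.14 (3.60 to 7.12), Nphs1 15 (12.7 to 17.8) against 7.0 (5.18 to 9.26) and Ptpro 20.6 (17.8 to 23.8) against 10.4 (8.18 to 13.1). Cd2ap, at 112 (106 to 119) and 106 (98.1 to 114), overlapped. Genes that are no members differed without overlap too: Cdkn1c at 269 and 195 CPM, Six2 at 85.5 and 66.9 and Cited1 at 312 and 257 were lower in the exposed library, and Wnt4 at 437 and 523 and Pax8, a transcription factor of the early nephron, at 184 and 215 were higher. Foxc2, at 87.4 (81.5 to 93.6) and 79.0 (72.6 to 85.9), and Tcf21, at 128 and 126, overlapped, as did Lhx1 and Jag1. Among the 1284 and 875 of these cells with a deposited hybrid doublet score of at most 1, the same 5 members stood lower without overlap, with Podxl at 57.3 and 24.6 CPM, Magi2 at 20.4 and 10.4, Synpo at 11.5 and 3.87, Nphs1 at 11.5 and 6.33 and Ptpro at 18.9 and 9.66. The line between the Wnt4-led and podocyte-like clusters was drawn by the authors for each library on its own, and its part in this difference was not tested.

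The number of other members held by a cell with Wt1 ran from 0 to 6. In the control library 908, 650, 144, 106, 122, 126 and 93 cells held 0, 1, 2, 3, 4, 5 and 6 of them, and in the exposed library 620, 485, 82, 59, 71, 83 and 76 did. Most cells thus held at most 1, and the mean was 1.36 members (1.32 to 1.41) in the control and 1.34 (1.29 to 1.4) in the exposed library. The intervals of these means count the 6 members of a cell as separate draws. Members were often found together in a cell, so these intervals are too narrow. The share of cells that lay in the podocyte-like cluster went from 0% with none of the 6 to 57.5% with 3 and 80.7% with all 6 in the control library, and from 0% to 44.1% and 96.1% in the exposed library. Depth did not follow the steps: the control medians were 4110 UMIs with none, 2428 with 3 and 4836 with all 6, and the exposed medians were 5036, 3269 and 4260. Wt1, which chose the cells, was not level along the steps either, and went from 461 CPM with none to 1420 with all 6 in the control library and from 417 to 1813 in the exposed library.

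Cells with many members were not all podocyte-like. Of the 341 control cells with Wt1 and at least 4 other members, 95 lay in other clusters, a share of 27.9% (23.2% to 32.9%), and of the 230 exposed cells 22 did, 9.57% (6.09% to 14.1%). These cells were deep, with medians of 6071 and 7740 UMIs, and 41.1% and 40.9% of them had a hybrid doublet score over 1, against 2.85% and 1.92% of those in the podocyte-like cluster. Their members summed to 2380 and 1896 CPM, against 7766 and 7516 in the podocyte-like cluster, and they carried proximal tubule markers at 1344 and 873 CPM, against 67.8 and 97.4. They also carried markers of ureteric bud and collecting duct, at 2029 and 525 CPM against 80.6 and 118, and of endothelium, at 287 and 1398 CPM against 93.4 and 13.1, and endothelium-like cells were the second site of Podxl. Results along the steps were therefore also read without the cells of high score.

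Among cells with exactly 1 of the 6 other members, that one was Cd2ap in 536 of 650 control cells and 415 of 485 exposed cells. With Cd2ap set aside, a single member was held by 210 control and 136 exposed cells. Podxl was that member in 87 of the control cells, 41.4% (34.7% to 48.4%), and in 39 of the exposed cells, 28.7% (21.2% to 37.1%). Magi2 was it in 70 cells, 33.3% (27.0% to 40.2%), and in 54 cells, 39.7% (31.4% to 48.5%), so the leading gene was not the same in both libraries. Cd2ap aside, pairs of members set Podxl first. In the control library 245 cells held Podxl and not Nphs1 while 24 held Nphs1 and not Podxl, and in the exposed library 118 and 17 did. Against Synpo the control counts were 284 and 30, and against Ptpro 247 and 26. Against Magi2 they were 223 and 79, and in the exposed library 110 and 58. Cd2ap went the other way: 225 control cells held Podxl and not Cd2ap, and 601 held Cd2ap and not Podxl. In the exposed library these counts were 122 and 466. Nphs1 and Ptpro were even, at 122 and 122 control cells and 82 and 70 exposed cells. A gene with more UMIs is found in more cells at any stage, and Podxl has the most UMIs of these 6 in the podocyte-like cluster, so these counts do not by themselves give an order in time.

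Each member was then set against its own level. It was left out, and cells were placed by how many of the remaining 5 they held. The member's level at 0 to 1 was divided by its own level at 4 to 5. This does not fully set abundance aside, because the low step still held podocyte-like cells. There were 31 control and 12 exposed such cells for Podxl, and 11 and 4 for Nphs1. Among podocyte-like cells alone, Podxl in the low step was at 69% and 111% of its late level. In the control library Cd2ap was already at 22.7% (20.4% to 25.3%) of its late level, Podxl at 1.5% (1.31% to 1.70%), Magi2 at 1.44% (1.14% to 1.79%), Synpo at 1.28% (0.894% to 1.79%), Ptpro at 1.10% (0.767% to 1.53%) and Nphs1 at 0.93% (0.637% to 1.32%). In the exposed library Cd2ap was at 23.3% (20.4% to 26.7%), Magi2 at 1.13% (0.863% to 1.46%), Ptpro at 1.02% (0.679% to 1.47%), Podxl at 1.0% (0.844% to 1.18%), Synpo at 0.767% (0.473% to 1.18%) and Nphs1 at 0.416% (0.240% to 0.675%). Cd2ap stood apart in both, and Nphs1 was the lowest in both. The place of Nphs1 depended on depth: in cells thinned to 1000 UMIs it was at 6.02% and 6.74%, above Synpo at 4.86% and 5.02%, and in exposed cells thinned to 3000 UMIs at 1.19%, above Synpo at 0.992%. Among control cells of the podocyte-like cluster alone it was at 33% and Synpo at 30.7%. Of the 15 pairs of members, 12 stood in the same order in both libraries, and these include every pair with Cd2ap.

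Among the other 5 members the intervals overlapped throughout in the control library. In the exposed library Nphs1 lay below Magi2, Ptpro and Podxl with no overlap, and the remaining pairs overlapped. In absolute terms the early level of Podxl was 28.5 CPM (25.2 to 32.1) and 21.5 CPM (18.3 to 25.1). That was over the 3.73 and 0.812 CPM of stroma-like cells and below the 302 and 273 CPM of endothelium-like cells. The low steps still held podocyte-like cells, 31 and 12 for Podxl, 13 and 6 for Ptpro and 11 and 4 for Nphs1. Their part in the early levels given here was not tested. Nphs1 at 3.71 CPM (2.57 to 5.19) and 2.31 CPM (1.35 to 3.70) and Ptpro at 4.17 CPM (2.95 to 5.72) and 4.21 CPM (2.86 to 5.98) were also over the stroma-like 1.24 and 0.650 CPM and 1.49 and 1.14 CPM, from only 17 to 38 UMIs. The intervals did not overlap for Podxl and Ptpro in both libraries and for Nphs1 in the control library, while for Nphs1 in the exposed library they did, with 0.177 to 1.66 CPM in stroma-like cells from 4 UMIs. Synpo at 4.18 and 2.98 CPM and Magi2 at 9.30 and 8.89 CPM were below the stroma-like level of 13.8 and 11.9 CPM and of 13.9 and 13.2 CPM. Other clusters lay on both sides of the early levels. Magi2 was at 6.63 and 0.461 CPM in endothelium-like cells and at 0 in macrophage-like cells. In proximal tubule-like clusters it was at 12.7 and 11.2 CPM (control) and at 19.2 and 12.1 CPM (exposed). Synpo was at 0 in macrophage-like cells and at 24.2 and 15.7 CPM in endothelium-like cells. Nphs1 was at 4.29 and 0.461 CPM in endothelium-like cells and at 0 in macrophage-like cells. In proximal tubule-like clusters Nphs1 was at 4.14 and 0 CPM (control) and at 11.97 and 4.02 CPM (exposed). Ptpro was there at 5.41 and 2.81 CPM (control) and at 0 and 0.670 CPM (exposed). In macrophage-like cells Ptpro was at 28.0 and 24.2 CPM. Whether the early counts of Synpo, Magi2, Nphs1 and Ptpro lie above background thus depends on the cells they are set against.

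**Figure D2:**
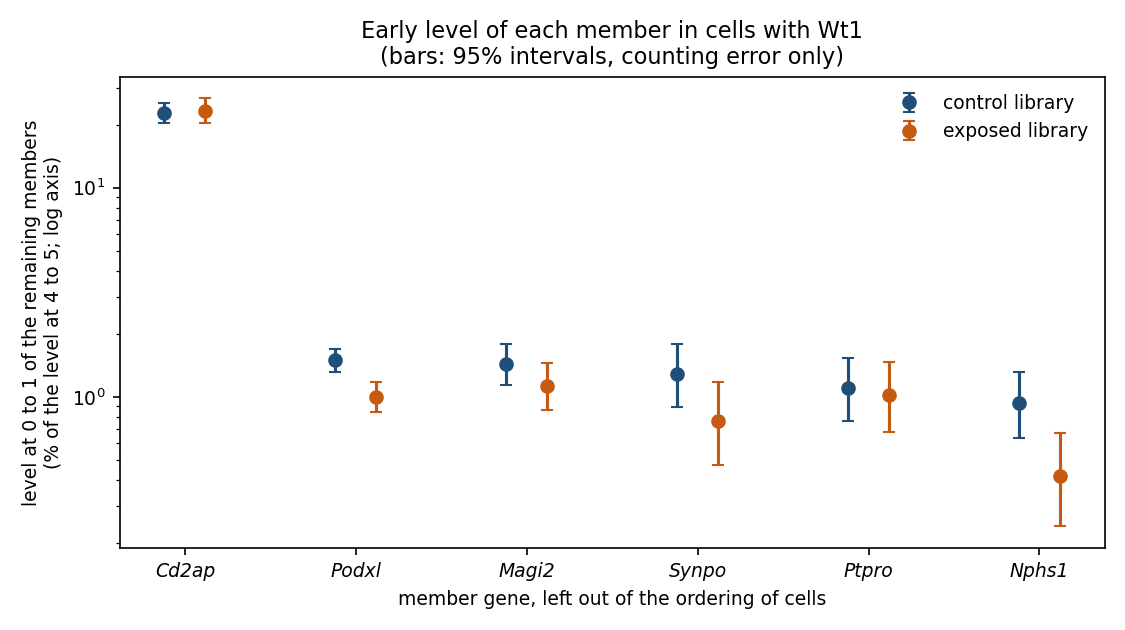
Level of each of the 6 other members in cells with at most 1 of the remaining 5, as a percentage of its level in cells with 4 to 5 of them (vertical axis, logarithmic), for cells with Wt1 in the control (blue) and exposed (orange) library; bars are 95% intervals that cover counting error only. Cd2ap stands at 22.7% and 23.3%, and the other 5 members lie between 0.416% and 1.5%.

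A second order used none of the other 6 members. The same cells were placed in 4 equal groups by the share of their UMIs from the 14 podocyte markers that are not members, a step added after the data had been seen. Few cells of the third group lay in the podocyte-like cluster, 0.372% (control) and 0% (exposed), while 62.6% and 66.7% of the highest group did. The Wnt4-led cluster held 85.9% and 88.4% of the second group but 72.8% and 67.2% of the third. The mix of other clusters thus changed between these groups as well. The markers include Tcf21, which is also a stroma marker. The part of this mix in the values of the groups was not tested. Wnt4 was held by 51.5%, 57.2%, 38.5% and 8.38% of control cells from the lowest to the highest group and by 62.1%, 64.5%, 39.6% and 4.34% of exposed cells. In the lowest group Wt1 was already at 31.1% and 26.4% of its level in the highest group and Cd2ap at 25% and 27.6%. The choice of cells requires 1 UMI of Wt1 and so raises its low end. The other 5 members were at 0.0943% to 1.79% in the lowest group of the control library and at 0.127% to 1.63% in that of the exposed library, with Magi2 the highest in both, at 9.70 and 9.44 CPM, again below the stroma-like level.

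Podxl, Ptpro, Synpo and Nphs1 first stood clear of their lower groups, with no overlap of intervals, in the third group, where cells were still almost all outside the podocyte-like cluster. Without the cells of high doublet score this held for Podxl and Ptpro in both libraries, but in the exposed library not for Nphs1, at 5.53 CPM (2.76 to 9.88) in the third and up to 3.69 in the second group, nor for Synpo, at 5.02 CPM (2.41 to 9.24) and up to 4.36 in the lowest group. Podxl went from 8.22 CPM in the second group to 42.0 in the third and 1561 in the highest in the control library, and from 5.53 to 32.5 and 1554 in the exposed library. Ptpro went from 1.28 to 17.4 and 332 CPM and from 0.692 to 7.74 and 337 CPM. Nphs1 went from 0.514 to 8.08 and 367 CPM and from 1.38 to 6.97 and 383 CPM. Synpo was at 12.4 and 6.58 CPM in the third group, no higher than the 13.8 and 11.9 CPM of stroma-like cells. As a share of the highest group, Ptpro led the 5 in the third group, at 5.25% (3.92% to 6.91%) among control cells and 2.30% (1.39% to 3.59%) among exposed cells. Synpo followed at 4.21% and 2.22%, and Podxl stood at 2.69% (2.25% to 3.20%) and 2.09% (1.66% to 2.60%), Magi2 at 2.98% (2.21% to 3.94%) and 1.60% (1.02% to 2.40%), and Nphs1 at 2.2% (1.43% to 3.25%) and 1.82% (1.07% to 2.90%). Ptpro stood above Podxl and Nphs1 without overlap in the control library, and in the exposed library all 5 overlapped. Without the cells of high doublet score Ptpro was still the highest, at 4.15% (2.90% to 5.76%) and 2.52% (1.5% to 3.98%), and in the control library it stayed above Podxl, at 2.16% (1.74% to 2.65%), but overlapped Nphs1, at 2.06% (1.27% to 3.18%).

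**Figure D3:**
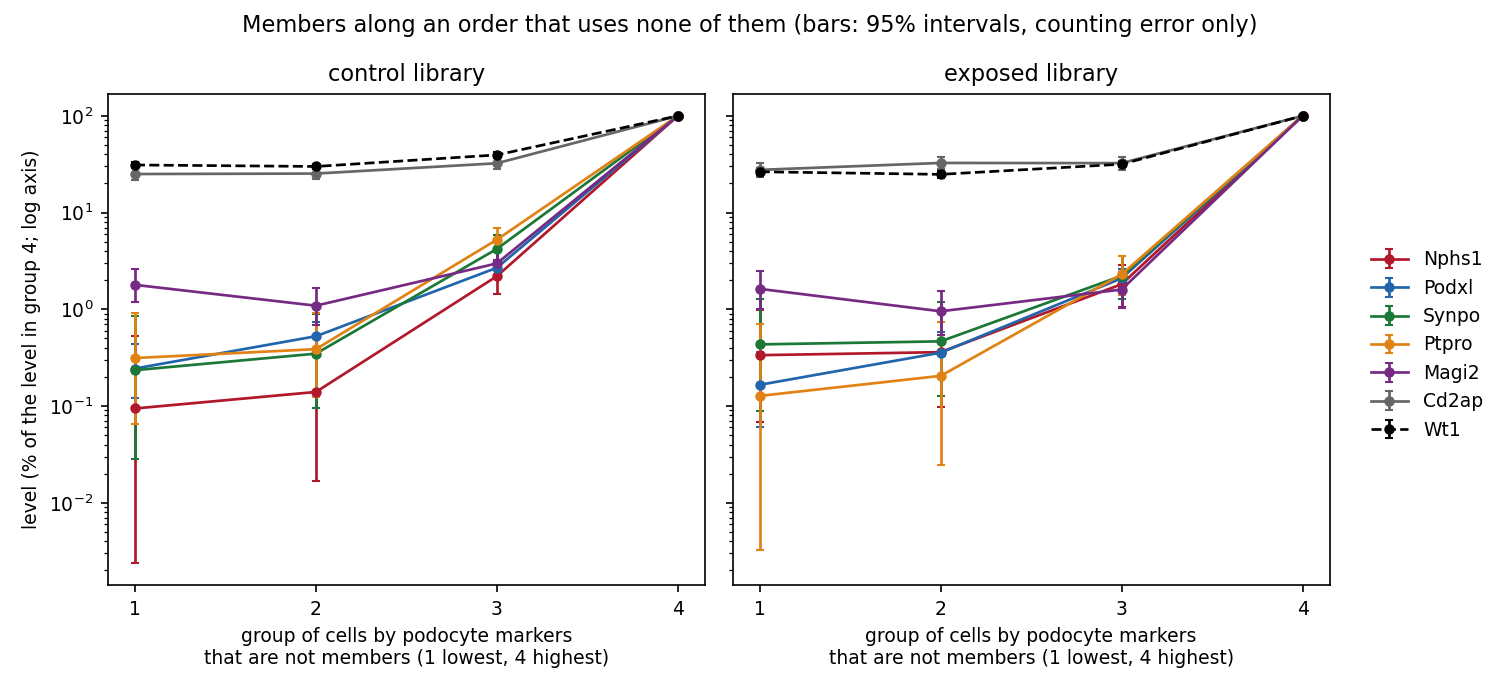
Level of each member as a percentage of its level in the highest group (vertical axis, logarithmic) over 4 equal groups of the cells with Wt1, ordered by podocyte markers that are not members, in the control (left) and exposed (right) library; the dashed line is Wt1, which chose the cells, and bars are 95% intervals that cover counting error only. Wt1 and Cd2ap start highest, and the other 5 members climb mostly between the third and the highest group, with Ptpro at 5.25% and 2.30% in the third.

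Genes outside the set were then read between cells with 0 to 1 and cells with all 6 of the other members. Over all shared genes with at least 50 UMIs in the cells compared, 29.2% were higher with all 6 in the control library, by an interval of the ratio that excludes 1, and 17.8% were lower. In the exposed library 24.2% were higher and 19.6% were lower. All 14 podocyte markers were higher in both libraries. Cdkn1c, a cell cycle inhibitor, went from 138 to 9017 CPM and from 137 to 10672 CPM.

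Partners of the slit diaphragm followed in part, with 6 of 10 measured genes higher in each library, 1 lower in the control and none lower in the exposed library. Tjp1, the tight junction protein ZO-1, went from 31.3 to 248 CPM and from 30.2 to 206 CPM, and Plce1, a phospholipase, from 13.5 to 121 CPM and from 10.6 to 110 CPM. Fat1, a large cadherin, went from 54.0 to 130 CPM and from 48.2 to 148 CPM. Pard3, a polarity protein, was at 38.2 and 47.9 CPM in the control library and at 35.1 and 41.2 CPM in the exposed one. Of 14 genes of actin and foot processes, 13 were higher in each library and none was lower. Rhpn1 went from 3.33 to 662 CPM and from 2.75 to 711 CPM, and Clic5 from 9.88 to 351 CPM and from 5.77 to 379 CPM.

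The collagens of the basement membrane parted. Col4a3, Col4a4 and Col4a5, the chains of the mature glomerular network, were all higher with all 6 members, with Col4a3 from 3.22 to 373 CPM and from 4.39 to 360 CPM and Col4a4 from 13.3 to 451 CPM and from 11.4 to 481 CPM. Col4a1 and Col4a2, the chains of the earlier network, were lower, Col4a1 from 203 to 119 CPM and from 232 to 74.2 CPM. Of the laminins, Lamb2 went from 19.6 to 126 CPM and from 18.0 to 126 CPM, while Lamb1 was at 124 and 119 CPM in the control library, within counting error, and went from 132 to 90.7 CPM in the exposed one. Over the whole list of 17 genes, 13 were higher and 2 lower in the control library, and 12 and 3 in the exposed library. Among podocyte transcription factors, Tcf21 went from 143 to 1290 CPM in the control library and from 203 to 1904 CPM in the exposed one, while the Notch targets Hey1 and Heyl were lower in both, Hey1 from 117 to 46.2 CPM and from 111 to 33.0 CPM.

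Genes of the early nephron went the other way, with 13 of 14 lower in the control and 14 of 14 in the exposed library. Wnt4 went from 409 to 39.0 CPM and from 460 to 13.7 CPM, and Ccnd1, a cyclin of the G1 phase, from 366 to 105 CPM and from 373 to 24.7 CPM. All 16 genes of the G2/M phase were lower in both libraries, for example Top2a, a topoisomerase of dividing cells, from 240 to 8.88 CPM and from 228 to 13.7 CPM. Without the cells of high doublet score, 14 of 14 podocyte markers were higher and 16 of 16 G2/M genes lower in both libraries. Markers of parietal epithelium, the other cell layer of the glomerular capsule, were lower for 6 of 10 genes and higher for 3 in the control library, and lower for 8 of 10 in the exposed library. Without the cells of high doublet score 1 of 10 was higher in the control library. The keratins Krt8 and Krt18 differed between the libraries, Krt8 going from 55.6 to 112 CPM in the control and from 72.1 to 13.7 CPM in the exposed library.

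Markers of other cells moved along the steps as well. Proximal tubule markers, summed over 12 genes, went from 733 to 907 CPM in the control library and from 768 to 140 CPM in the exposed library, and endothelium markers, summed over 11 genes, from 98.4 to 201 CPM and from 86.4 to 22.0 CPM. Macrophage markers, summed over 10 genes, went from 41.7 to 31.9 CPM and from 48.5 to 16.5 CPM, with 6 and 8 of them at 0 in the cells with all 6 members. Stroma markers, which include Tcf21 and Foxd1 of the podocyte itself, went from 538 to 1690 CPM and from 664 to 2489 CPM. Their part in the values above was not tested.

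**Figure D4:**
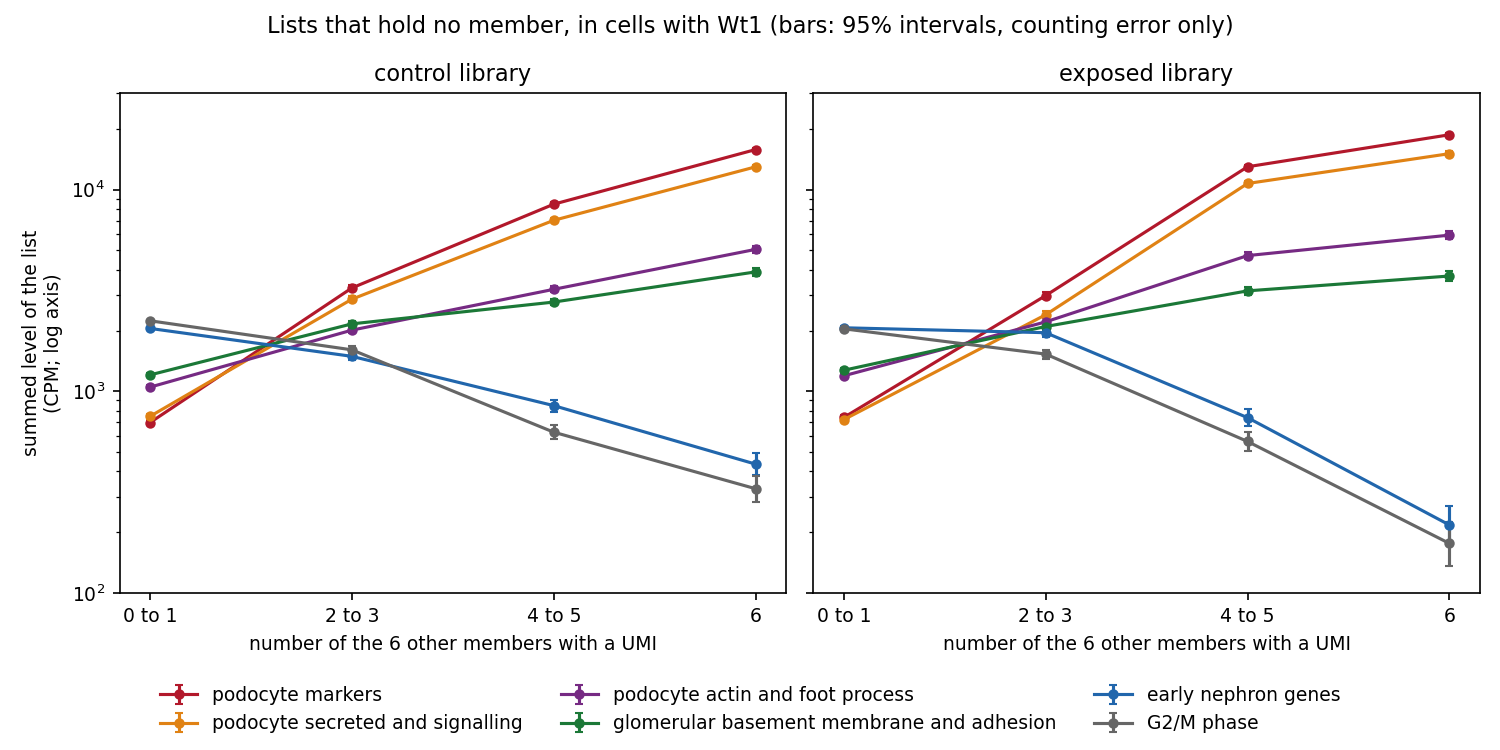
Summed level of 6 gene lists that hold no member (vertical axis, CPM, logarithmic) in cells with Wt1 that held 0 to 1, 2 to 3, 4 to 5 or all 6 of the other members, in the control (left) and exposed (right) library; bars are 95% intervals that cover counting error only. The 14 podocyte markers go from 699 to 15815 CPM in the control and from 741 to 18728 CPM in the exposed library, while early nephron genes go from 2050 to 435 and from 2065 to 217.

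Within the podocyte-like cluster itself the members differed little between the libraries. None of the 7 stood above 125% or below 80% of the control level, with 10 CPM added to both sides. Of the 4958 measured genes, 19.4% did. A measured gene needed only 50 UMIs over both libraries, far fewer than any member had, and genes with few UMIs pass the fold more easily by counting error. With 7 genes, a count of 0 is also not far from that share. None of the 7 had an interval that excluded 1 either, as it did for 8.77% of measured genes. Other ways to count did give such intervals, on the log2 scale. Over UMIs not from the mitochondrial genome Cd2ap was at -0.21 (-0.42 to -0.012), and after thinning to 2000 UMIs Podxl was at 0.23 (0.099 to 0.36) and Magi2 at 0.26 (0.054 to 0.47). In cells of any cluster with at least 3 podocyte markers Podxl, at -0.20, Synpo, at -0.18, Ptpro, at -0.20, Wt1, at -0.11, and Cd2ap, at -0.10, were lower in the exposed library with intervals below 0. Cd2ap had the lowest ratio, 0.874 (0.759 to 1.01). Ratios of the other 6 lay between 1.00 for Podxl (0.942 to 1.06) and 1.08 for Ptpro (0.943 to 1.23), with Wt1 at 1.03 (0.955 to 1.1), Synpo at 1.04 (0.905 to 1.19), Magi2 at 1.04 (0.947 to 1.15) and Nphs1 at 1.05 (0.928 to 1.18). Differences up to these bounds are not excluded by the counts. Summed over the 7 members, the levels of 7179 and 7285 CPM gave 1.01 (0.980 to 1.05).

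The sum depended on which cells were called podocytes. Over cells of any cluster with at least 3 of the podocyte markers, 2272 control and 1627 exposed cells of which 1919 and 1373 lay outside the podocyte-like cluster, it turned to a log2 ratio of -0.14 (-0.17 to -0.10), against 0.021 (-0.029 to 0.071) in the podocyte-like cluster. Over cells with Wt1 and at least 4 other members it was 0.24 (0.19 to 0.29). Neutrophil markers had 668 UMIs in the control podocyte-like cluster, 666 of them in 2 cells, and 0 in the exposed one, and endothelium markers had 101 and 11. Without the cells with over 10 neutrophil UMIs the log2 ratio was 0.016.

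**Figure D5:**
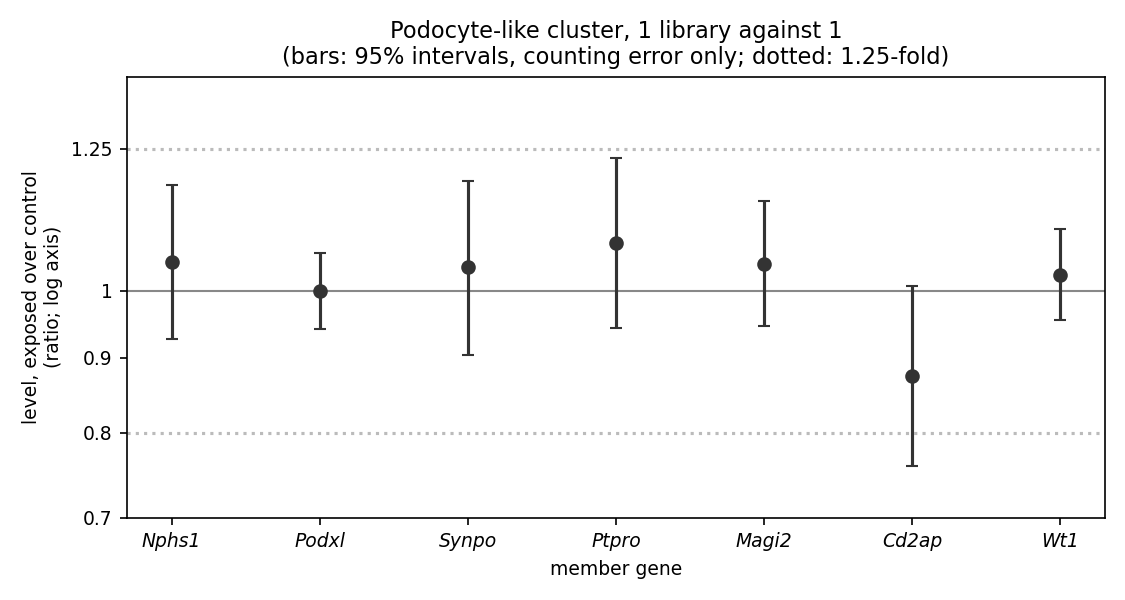
Ratio of the exposed to the control level of each member in the podocyte-like cluster (vertical axis, logarithmic), 1 library against 1; bars are 95% intervals that cover counting error only, the solid line is a ratio of 1 and dotted lines mark 125% and 80%. All 7 points lie inside the dotted lines, between 0.874 for Cd2ap and 1.08 for Ptpro.

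The lists around the members were counted the same way. Slit diaphragm partners held 0 of 8 genes above 125% and 3 of 8 below 80%, beside 9.8% and 9.64% of all measured genes, and only Fat1 among them had an interval that excluded 1, at 159 and 115 CPM, a ratio of 0.720 (0.551 to 0.938). Among 14 actin and foot process genes, 2 were past the fold higher and 1 lower. An interval that excluded 1 was found for 6 of the 14, beside 8.77% of all measured genes. All 6 were higher in the exposed library: Actn4, Myo1e, Ezr, Arhgap24, Arhgdia and Vim. Only Myo1e and Vim of these were past the fold, and genes with more UMIs have narrower intervals. The intervals of Actn4, Ezr and Arhgap24 began at 1.019, 1.015 and 1.017. Myo1e, a motor protein of the foot process, was at 55.4 and 98.3 CPM, 1.77 (1.24 to 2.55), and Vim, vimentin, at 528 and 669 CPM, 1.27 (1.12 to 1.43). Of 7 transcription factors, Tcf21 was higher, at 1599 and 2149 CPM, 1.34 (1.254 to 1.44), and Hey1 lower, at 52.4 and 31.5 CPM, 0.601 (0.358 to 0.987). Of 16 basement membrane genes only Col4a1 was past the fold, at 102 and 61.7 CPM, 0.607 (0.422 to 0.862), and of 9 secreted and signalling genes only Efnb2, an ephrin ligand, at 165 and 108 CPM, 0.656 (0.499 to 0.857). Among the secreted genes, Robo2, at 0.862 (0.759 to 0.978), and Cdkn1c, at 1.113 (1.082 to 1.145), had intervals that excluded 1 within the fold. The median log2 ratio was 0.03 for the slit diaphragm partners, 0.15 for the actin genes, 0.09 for the transcription factors, -0.03 for the basement membrane and -0.06 for the secreted genes, against 0.00 for all measured genes.

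Over the 10 clusters of a library, the genes reported here whose pattern was most like the mean of the members were Sgip1, Rab3b, Wipf3, R3hdml, Aplp1, Zbtb8a, Tmem54, Hs3st6, Nell2 and Kremen1, by Pearson's r of log2(CPM + 10). These r are descriptions over 10 points that share a library, and the podocyte-like cluster carries most of each of them. For Sgip1 r was 0.98 in both libraries, and for Kremen1, the last of the 10, it was 0.97 in both. R3hdml was the most abundant, at 1415 and 1613 CPM in the podocyte-like clusters, followed by Hs3st6, at 828 and 832 CPM. Of the members, Nphs1 and Synpo had the highest r with that mean, 0.98 and 0.96 for Nphs1 and 0.97 in both for Synpo, and Cd2ap the lowest, 0.80 and 0.70. Each member is itself part of that mean, which raises its r, so these values cannot be set beside those of the 10 genes.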

How the data were processed

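Reads were processed with Cell Ranger 2.2.0 on mm10, per the submitters' processing notes. The deposited matrices hold whole-number UMI counts per gene and cell, and the authors' deposited metadata gave clusters, the percent of mitochondrial counts and a hybrid doublet score. Per the file headers, that score is named for doublets; the labels do not say how it was computed. The deposited log-normalised matrices were not used. Gene symbols, in lower case in the files, were matched to GENCODE M21 symbols without regard to case. All deposited cells were kept in the main values and no doublet caller was run; cells of score over 1 were left out as an alternative.

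Counts were summed per cluster or step and divided by all UMIs there (CPM), with exact Poisson, binomial and conditional binomial intervals at 95% (Python 3.11.15, numpy 2.4.6, scipy 1.17.1, pandas 2.3.3), tested on simulated data. Shares were repeated in cells thinned to 2000 UMIs. Clusters were named from at least 3 markers found in at least 10% of cells at 2-fold the other cells, none a member. A measured gene had at least 50 UMIs over both libraries.

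Named genes were the 7 members, the 10 most similar genes, and from each list genes with the highest levels or past the fold (125% or 80%). Along the steps, examples were chosen after their values were seen. Members, lists and markers were chosen with earlier results of these data known. Choosing the ordered cells by Wt1 was settled after the data had been seen. Some genes are not reported here.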

Additional observations from a re-analysis of the deposited data

How the results depend on the processing

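The members' summed log2 ratio in the podocyte-like cluster was 0.021. It was -0.14 in cells of any cluster with at least 3 podocyte markers, 0.24 in cells with Wt1 and at least 4 other members and 0.14 after thinning to 2000 UMIs, which leaves out shallower cells. The other 4 alternatives stayed within its interval.

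The share of cells with Wt1 was 27.3% (control) and 29.9% (exposed) without cells over 25% mitochondrial UMIs, 17.6% and 18.4% after thinning, and 15.5% and 17.2% with at least 2 UMIs of Wt1. Without cells of high doublet score it was 22.3% in the control library.

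The mean number of other members was 1.72 and 1.73 with at least 2 UMIs of Wt1, 4.33 and 4.69 in the podocyte-like cluster only, 1.05 and 0.99 after thinning to 1000 UMIs, 0.995 and 1.19 after thinning to 2000, and 0.835 and 0.824 after thinning to 3000.

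The order of members kept 10 to 15 of 15 pairs, with 2 exceptions. The exposed podocyte-like cluster alone kept 6, and its low step held 3 to 12 cells (10 to 31 in the control library), so its places rest on thin counts. The control order by podocyte markers, read in the third group, kept 9, with and without cells of high doublet score. Except in the exposed podocyte-like cluster alone, Cd2ap stood highest in each of these settings, so its pairs were kept. Counts near 10 of 15 therefore say little about the order of the other members. Ordering all podocyte-like cells with the 7 members left 16 to 39 control and 4 to 15 exposed cells in the low step, and gave no order. Over all measured genes 964 passed the fold, and 2212 did with no minimum count. The cause of these shifts was not tested.

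No paired analysis was possible because each group has 1 library, and no replicate was left out for the same reason.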
